A study of Mus musculus with 9 samples.

Results

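Perineuronal nets and the looser matrix around brain cells are built on hyaluronan, a long sugar chain made at the cell surface by hyaluronan synthases. The 10 genes described here encode this matrix: the lecticans Acan (aggrecan), Bcan (brevican), Ncan (neurocan) and Vcan (versican), the link proteins Hapln1 and Hapln4, the tenascins Tnr and Tnc, the synthase Has2 and the receptor phosphatase Ptprz1. They were taken by symbol after the Ensembl identifiers of the count files were matched to the mouse annotation. This set and the further lists below were chosen with earlier results of these data known. Their counts beside the shares of all genes are therefore a description. All 10 were found among the 54232 genes listed, and all 10 passed the filter on low counts that left 15712 genes to test.

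Lecticans are chondroitin sulfate proteoglycans that bind hyaluronan at their N-terminal end and tenascins at their C-terminal end. Link proteins hold a lectican on its hyaluronan chain, and trimeric tenascin-R cross-links the lecticans. In the brain, neurons supply part of this matrix while glia and progenitors supply much of the brevican, tenascin-C and Ptprz1. Mature nets surround mainly fast-spiking interneurons that contain parvalbumin.

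Expression was measured by RNA sequencing in 9 libraries of cortical neurons from wild-type CD1 mice, with 3 repeats in each of 3 groups, named control, PA and PA + PS2. The letters PA stand for peptide amphiphile, a class of molecules in which a short peptide carries a lipid chain and which form nanofibres in water. Its libraries are named IKVAV, a cell-binding motif of laminin. The PA + PS2 libraries are named IKVAV plus PEDOT-S-OH, where PEDOT is a conducting polymer, and the control libraries are named PDL, which the labels do not spell out. All 9 libraries, controls included, carry a treatment label of peptide amphiphile, so the groups follow the titles. The age of the animals, the time in culture and the amounts are not given in the sources used here, and the labels do not tell whether each repeat was its own culture. The p-values therefore cover only the spread among these libraries, part of which can be technical.

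Total counts ran from 20746851 to 27237398 per library. The 10 listed neuron markers summed to 8529 to 10761 CPM (read counts scaled to the size of each library) over the 9 libraries, and Rbfox3, a nuclear marker of mature neurons, stood at 92.4 to 132 CPM. Pvalb, the gene of parvalbumin, had 3 reads in all 9 libraries together and 0 in the controls. Glia and dividing cells were present too, with 11 astrocyte markers at 269 to 385 CPM in sum (Gjb6 at 0 in every library) and 9 markers of dividing cells at 86.7 to 263 CPM. Control repeat 1 stood apart from control repeats 2 and 3, with the lowest summed astrocyte, progenitor and dividing-cell markers of its group. Repeat 1 was also the lowest library of PA and of PA + PS2 in each of these sums. In bulk samples, fewer cells of a type and less RNA per cell cannot be told apart.

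Neurocan dominated the set. Divided by the length of the exons, Ncan averaged 102 CPM per kb over the 9 libraries, with the lowest library at 89. Ptprz1 followed at 22.6 CPM per kb, Tnr at 18.2, Vcan at 17 and Tnc at 8.55. The remaining members were low, with Bcan at 2.95 CPM per kb, Acan at 1.42, Hapln4 at 0.426, Hapln1 at 0.239 and Has2 at 0.12. Ncan lay above Ptprz1 in 9 of 9 libraries and Vcan above Tnc in 9 of 9, whereas Tnr lay above Vcan in only 5 of 9, so these neighbours in the order did not differ beyond their spread. Ncan alone made up 45.1% of the summed CPM of the 10 genes.

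**Figure D1:**
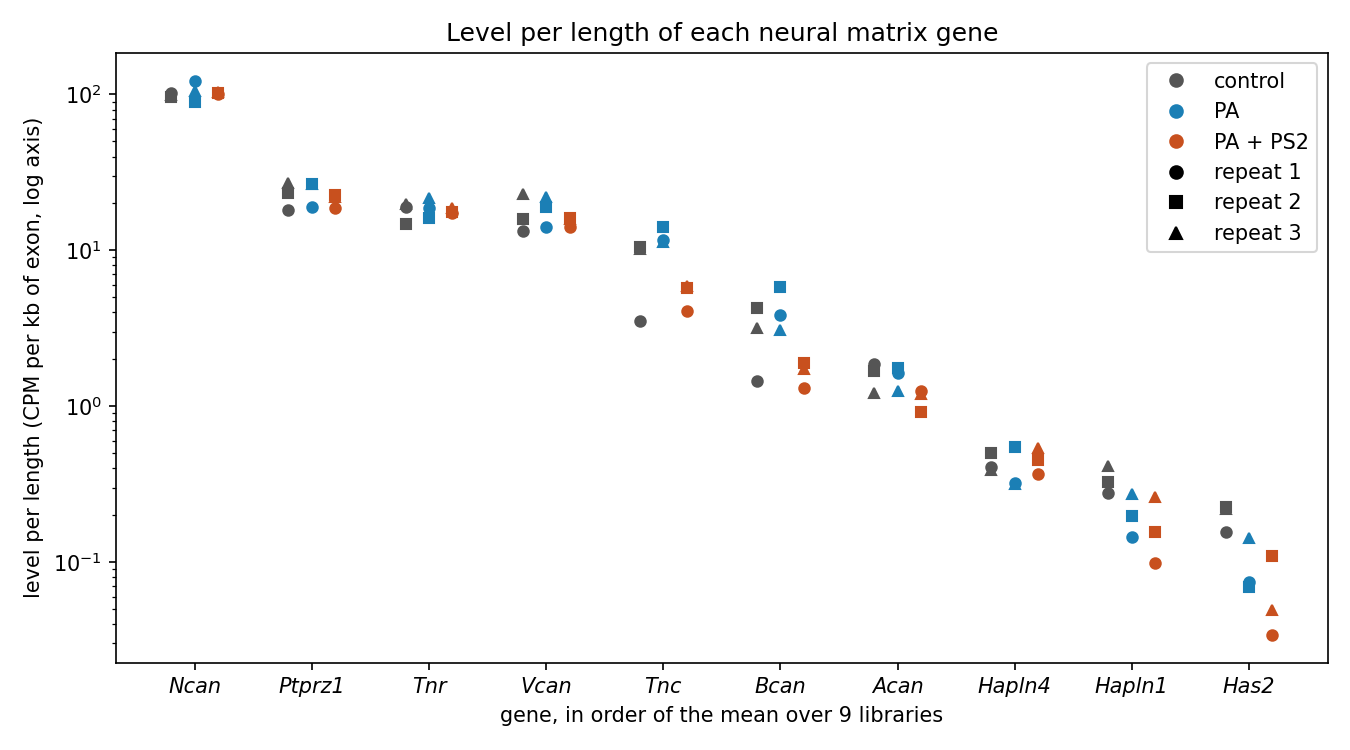
Level of each gene in CPM per kb of exon on a log axis, with genes in order of their mean over 9 libraries, colours for the group and symbols for the repeat. Ncan sits near 102 CPM per kb in every group, while Has2 averages 0.12 and the PA + PS2 points of Tnc and Bcan lie below all 3 PA points.

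The 10 genes split by how they stood across the groups. Tnc and Bcan were lower in each PA + PS2 library than in each PA library, and Hapln1 and Has2 were lower in each treated library than in each control library. Acan, Hapln4 and the abundant genes Ncan, Ptprz1, Tnr and Vcan overlapped between the groups in every comparison. None of the 10 passed the edgeR test in any comparison (adjusted p under 0.05 over 15712 genes). The background was as low: 0% of all genes passed for PA against control, 0.0446% (7 genes) for PA + PS2 against control, and 0% for PA + PS2 against PA. With the repeat number as a block in the fit, these shares were 0%, 1.17% (1.06% lower) and 0.363% (0.337% lower), and the members passing were 0, 0 and 2. Those 2 were Bcan and Tnc, lower in PA + PS2 than in PA (edgeR adjusted p = 0.0354 and 0.0389). In that comparison, deviations from the group means of same-numbered libraries correlated at 0.29 and 0.3 for repeats 2 and 3, but at 0.015 for repeat 1. At an unadjusted p under 0.05 there were 0 of the 10 members for PA against control (1.22% of all genes), 4 for PA + PS2 against control (5.63%) and 3 for PA + PS2 against PA (5.61%). The 4 were Acan, Bcan, Hapln1 and Has2, and the 3 were Acan, Bcan and Tnc. DESeq2 passed 0, 0 and 1 of the members in these comparisons, beside 0%, 1.43% and 0.815% of all genes.

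**Figure D2:**
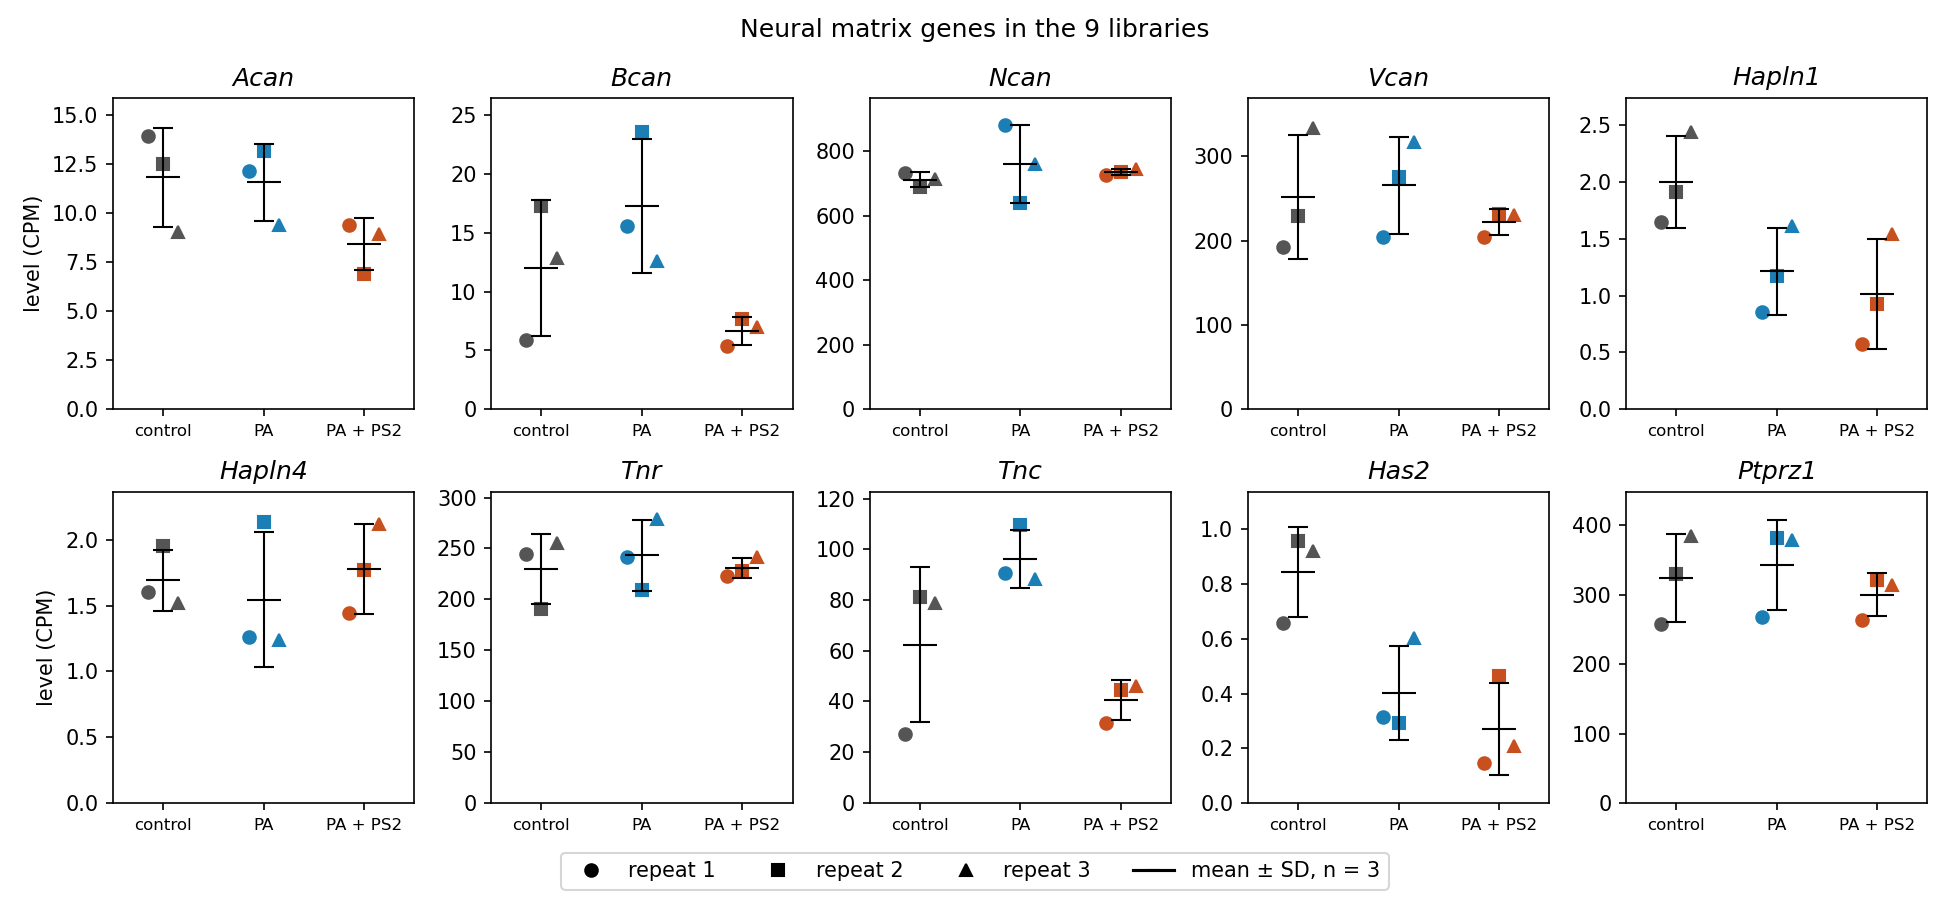
CPM of the 10 genes in control, PA and PA + PS2, with a symbol for each repeat and the mean ± SD of 3 libraries in black, each axis starting at 0. Tnc in PA + PS2 lies between 31.5 and 46.2 CPM, below the lowest PA library at 88.4 CPM. The 3 control libraries of Has2 lie above the 6 treated ones, by a small margin and at 3 to 22 reads per library.

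Median log2 fold changes of the 10 members were 0.08 for PA against control, −0.34 for PA + PS2 against control and −0.26 for PA + PS2 against PA, beside medians of −0.01, 0.00 and 0.01 over all genes tested. For PA against control 4 of 10 members lay below 0 (52.8% of all genes), for PA + PS2 against control 7 of 10 (50.2%) and for PA + PS2 against PA 9 of 10 (48.6%). The groups did not overlap for Hapln1 and Has2 (lower) and Tnc (higher) in PA against control, for Hapln1 and Has2 (lower) in PA + PS2 against control, and for Bcan and Tnc (lower) in PA + PS2 against PA. Over all genes, groups did not overlap for 4.04% in PA against control (2.07% lower and 1.97% higher), 11.9% in PA + PS2 against control (6.54% lower and 5.38% higher) and 9.64% in PA + PS2 against PA (6.32% lower and 3.32% higher). The comparisons share libraries, so each is given with its own values.

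**Figure D3:**
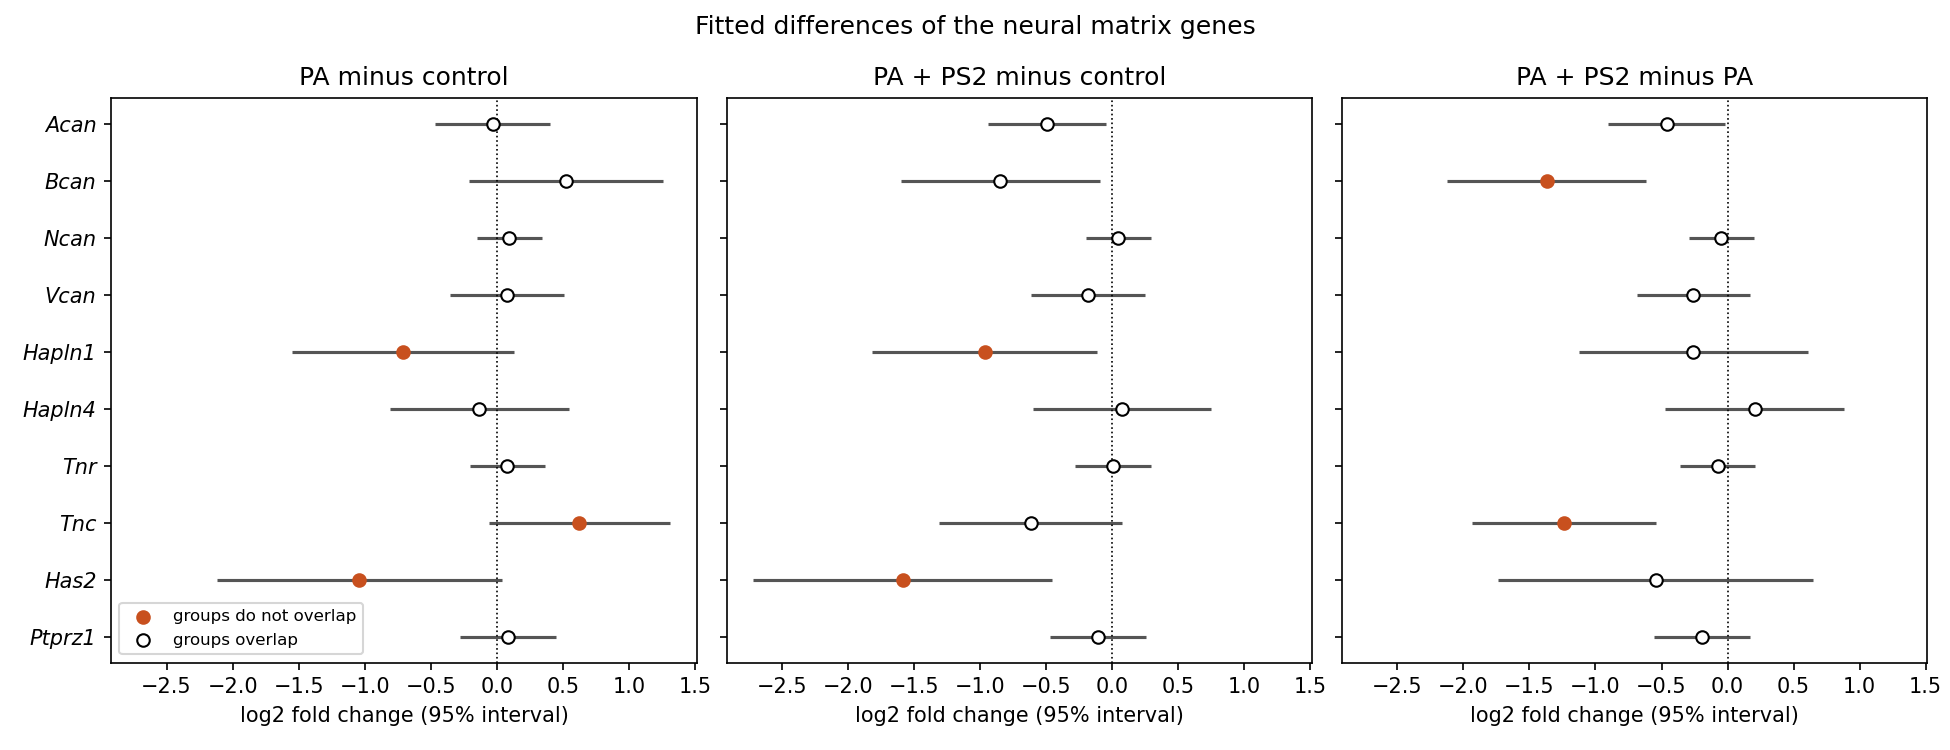
Fitted log2 fold change of each gene with its 95% interval in the 3 comparisons, filled where the libraries of both groups do not overlap. For PA + PS2 minus PA the intervals of Bcan (−2.13 to −0.62) and Tnc (−1.94 to −0.54) lie farthest from 0, and no gene passed after adjustment.

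Tenascin-C, a matrix glycoprotein of progenitors, astrocytes and injured tissue, is encoded by Tnc (ENSMUSG00000028364, mm10 chromosome 4, 63959785 to 64047015, minus strand). Tnc stood at 27.2, 81.3 and 78.7 CPM in control repeats 1, 2 and 3, at 90.8, 109 and 88.4 CPM in PA, and at 31.5, 44.3 and 46.2 CPM in PA + PS2. All PA libraries were above all others, and control repeat 1 was the lowest of the 9. The log2 fold change was −1.24 ± 0.32 (SE) for PA + PS2 against PA (edgeR adjusted p = 0.325), 0.63 ± 0.31 for PA against control (adjusted p = 1) and −0.62 ± 0.32 for PA + PS2 against control (adjusted p = 1). Without control repeat 1, Tnc passed as lower in PA + PS2 against control at −0.97 (edgeR adjusted p = 0.0159) and against PA at −1.24 (adjusted p = 0.0187), and the difference of PA from control was 0.27. Without control repeat 2 or 3, the value of PA + PS2 against control was −0.37 or −0.41 (edgeR adjusted p = 1 for both). In the comparison with PA the left-out library belongs to neither group. It enters through the estimate of the spread, the low-count filter, the scaling and the adjustment over genes.

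Brevican, the smallest lectican, is the product of Bcan (ENSMUSG00000004892, chromosome 3, 87987531 to 88000230, minus strand). The group means of Bcan had the same order as those of Tnc, but its PA and control libraries overlapped. Bcan stood at 5.87, 17.3 and 12.8 CPM in control repeats 1, 2 and 3, at 15.6, 23.6 and 12.6 CPM in PA, and at 5.34, 7.63 and 6.99 CPM in PA + PS2. The PA + PS2 libraries lay below all PA libraries, and control repeat 1 lay among them. The log2 fold change was −1.37 ± 0.35 for PA + PS2 against PA (edgeR adjusted p = 0.302; DESeq2 adjusted p = 0.0104). It was −0.85 ± 0.35 for PA + PS2 against control (edgeR adjusted p = 0.708) and 0.52 ± 0.34 for PA against control (adjusted p = 1). Without control repeat 1 the value for PA + PS2 against control was −1.17 (edgeR adjusted p = 0.0666), and without control repeat 2 it was −0.47 (adjusted p = 1).

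Across the 9 libraries log2 CPM of Bcan and Tnc had a Pearson r of 0.95 (Spearman rho 0.88), which was 0.94 in the 7 libraries left without the 2 farthest from the Bcan median and 0.92 for deviations from the group means. These 9 points share 3 groups and 3 repeat numbers, and the value is given as a description. Among the 45 pairs of members, only Vcan with Ptprz1 came near it, at r = 0.93, with 0.93 for deviations from the group means.

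**Figure D4:**
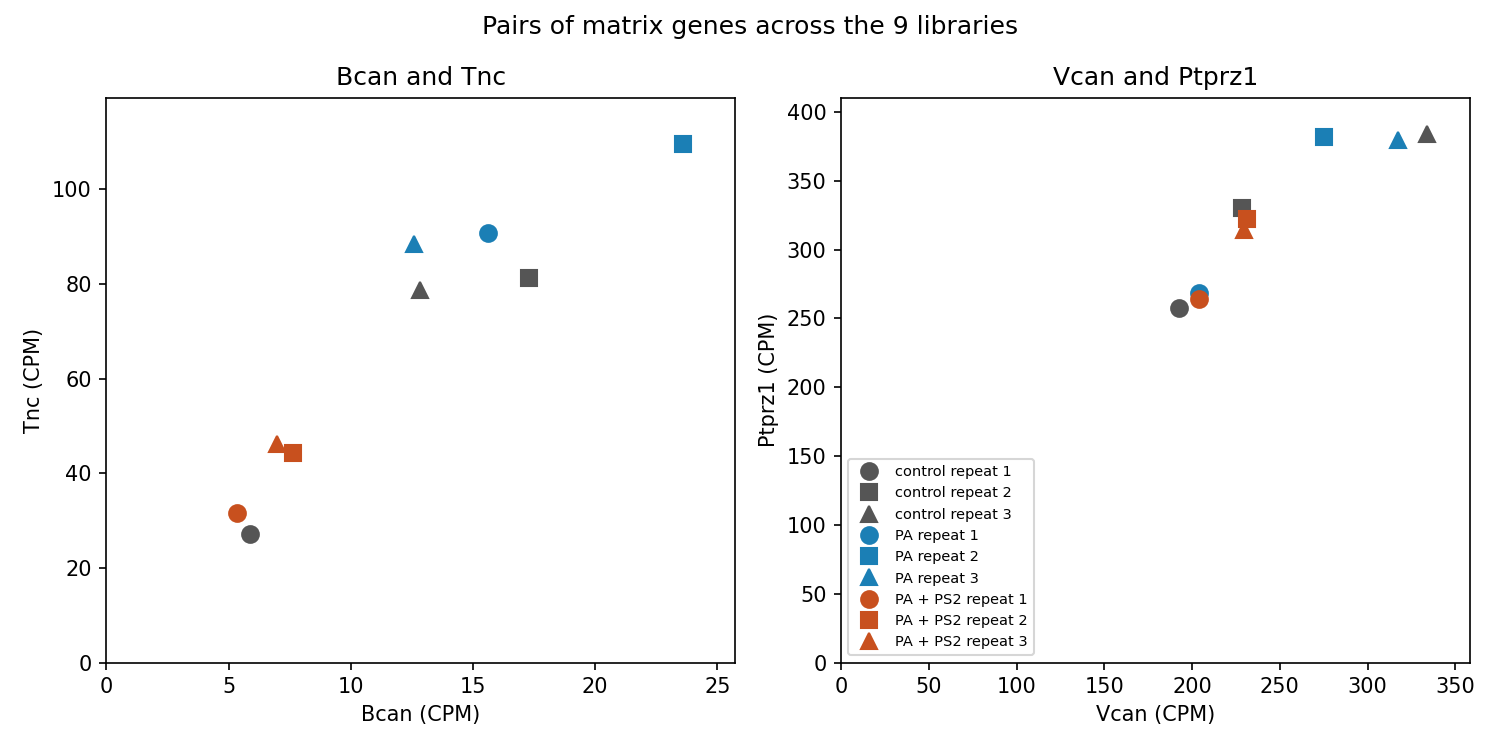
Each point is 1 library, in CPM on axes that start at 0, for Bcan with Tnc (left) and Vcan with Ptprz1 (right), coloured by group with a symbol for each repeat. On the left control repeat 1 lies beside the PA + PS2 libraries, and on the right the 3 libraries of repeat 1 lie lowest in both genes.

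The promoters of Tnc and Bcan are shown because the levels of these genes tracked each other, with that of Ncan, the most abundant member, for comparison. They come from RefSeq (GRCm38.p6), 250 bases before to 50 after the start, read 5′ to 3′ on the strand of the gene, and RefSeq windows were matched for 8 of the 10 members. Capitals mark a TATA box (TATAAA), a POU octamer (ATGCAAAT) or a GC box (GGGCGG), searched on both strands. The windows are chr4:64046966-64047265 for Tnc, chr3:88000307-88000606 for Bcan and chr8:70120795-70121094 for Ncan, all on the minus strand.
Tnc: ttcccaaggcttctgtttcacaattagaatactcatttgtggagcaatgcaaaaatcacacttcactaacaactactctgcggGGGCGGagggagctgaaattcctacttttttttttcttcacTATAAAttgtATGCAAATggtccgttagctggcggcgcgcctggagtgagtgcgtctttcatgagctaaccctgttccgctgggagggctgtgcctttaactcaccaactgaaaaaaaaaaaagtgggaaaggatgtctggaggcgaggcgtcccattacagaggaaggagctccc
Bcan: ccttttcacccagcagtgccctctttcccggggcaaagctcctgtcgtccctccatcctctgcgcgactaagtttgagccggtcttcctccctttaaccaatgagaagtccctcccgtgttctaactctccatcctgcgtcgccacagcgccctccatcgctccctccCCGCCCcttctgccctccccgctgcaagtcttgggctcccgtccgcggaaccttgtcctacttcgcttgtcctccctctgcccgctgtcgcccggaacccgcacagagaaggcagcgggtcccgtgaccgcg
Ncan: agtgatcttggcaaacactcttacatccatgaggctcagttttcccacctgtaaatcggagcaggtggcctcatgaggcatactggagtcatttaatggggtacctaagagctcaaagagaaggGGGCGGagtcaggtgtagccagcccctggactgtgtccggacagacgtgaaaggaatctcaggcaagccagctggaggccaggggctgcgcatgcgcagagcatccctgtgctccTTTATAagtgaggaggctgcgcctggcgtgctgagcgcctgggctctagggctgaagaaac

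In these windows Tnc held the GC box at −167, the letters TATAAA at −126 and the octamer at −116 from the start. Positions are counted to the first base of the match. A second RefSeq start of Tnc gives an overlapping window with the same 3 matches. Close to that second start, its window also reads tatataag, a TATA-like stretch that the exact letters TATAAA do not match. Bcan held only a GC box, reversed, at −82, and Ncan held reversed TATAAA letters at −11 and a GC box at −126. Of 32851 promoters of this length, 13.6% held TATAAA, 1.74% the octamer and 35.7% the GC box. Among the 8 matched members, 6 held the GC box, 2 (Ncan and Tnc) TATAAA and 1 (Tnc) the octamer. A SOX motif (ACAATG), the full NFI palindrome and an AP-1 site (TGANTCA) were also searched and had 0 matches in the 8 members, against 12.6%, 0.0365% and 7.81% of all promoters. A match is a description of letters and not a site of binding.

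Markers of astrocytes, oligodendrocyte precursors and progenitors were also lower in sum in PA + PS2 than in PA. Their order between PA and control differed from list to list. Summed CPM of the 11 progenitor markers was 356, 547 and 631 in control repeats 1, 2 and 3, 477, 563 and 495 in PA, and 299, 340 and 325 in PA + PS2. Of 11 progenitor genes tested, 10 lay below 0 for PA + PS2 against PA, with a median of −0.81 (48.6% of all genes lay below 0). In 8 of the 11 the groups did not overlap (6.32% of all genes, lower), 8 had an unadjusted p under 0.05 (5.61%) and 0 passed the edgeR test. With the repeat block Notch1 and Eomes passed as lower (0.337% of all genes). Astrocyte markers summed to 269, 345 and 385 CPM in control, 340, 367 and 366 CPM in PA, and 275, 311 and 319 CPM in PA + PS2. Of 10 tested astrocyte markers, 8 lay below 0 for PA + PS2 against PA, with a median of −0.71, 5 had an unadjusted p under 0.05 and 0 passed, with or without the block. Markers of oligodendrocyte precursors, which also express Ptprz1 and Bcan, summed to 30, 58.3 and 47 CPM in control, 32.3, 56.9 and 33.4 CPM in PA, and 19, 21.9 and 20.7 CPM in PA + PS2. For PA against control 6 of these 8 lay below 0, with a median of −0.17. Between PA + PS2 and PA 6 of 8 lay below 0, with a median of −0.82. With the block Pdgfra, Olig1 and Olig2 passed as lower (0.337% of all genes). The limit of this block for repeat 1, given above for Bcan and Tnc, holds for these markers too. Dividing-cell markers summed to 151 to 224 CPM in PA and 86.7 to 112 CPM in PA + PS2, with a median of −1.05. Fibroblast and mural markers were lower too, at 253 to 359 and 147 to 216 CPM, with a median of −1.27. Microglia markers overlapped, at 4.28 to 6.58 and 3.58 to 5.45 CPM, with a median of 0.03. Neuron markers had a median of 0.04 for PA + PS2 against PA. The part of these cell types in the values of Tnc and Bcan was not tested.

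Has2, which makes long hyaluronan chains, and Hapln1, the link protein also known from cartilage, were lower in both treated groups, at low read numbers. Has2 (ENSMUSG00000022367, chromosome 15, 56665627 to 56694539, minus strand) had 16, 22 and 20 reads in control repeats 1, 2 and 3, 7, 7 and 16 reads in PA, and 3, 12 and 5 reads in PA + PS2. In CPM these were 0.657, 0.956 and 0.921, then 0.315, 0.293 and 0.601, then 0.144, 0.463 and 0.208, so no treated library reached the lowest control. The margin was small, as PA repeat 3 and control repeat 1 both had 16 reads. Their 95% counting intervals overlapped, at 0.344 to 0.976 and 0.376 to 1.07 CPM. The log2 fold change was −1.04 ± 0.49 for PA against control (edgeR adjusted p = 1) and −1.59 ± 0.52 for PA + PS2 against control (adjusted p = 0.409). For 3 reads the exact Poisson interval, which covers counting error only, runs from 0.619 to 8.77 reads. The antisense gene Has2os shares 182 exon bases with Has2 and had 21 reads in all, and the strand setting of the counting is not known.

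Hapln1 (ENSMUSG00000021613, chromosome 13, 89539796 to 89611652, plus strand) had 40, 44 and 53 reads in control repeats 1, 2 and 3, 19, 28 and 43 in PA, and 12, 24 and 37 in PA + PS2. Its levels were 1.64, 1.91 and 2.44 CPM in control, 0.855, 1.17 and 1.62 CPM in PA, and 0.577, 0.925 and 1.54 CPM in PA + PS2. Both treated groups lay below the controls, the highest PA library by a small margin, and repeat 1 was the lowest library in each group. The log2 fold change was −0.71 ± 0.38 for PA against control (edgeR adjusted p = 1) and −0.97 ± 0.39 for PA + PS2 against control (adjusted p = 0.692). Within repeats 1, 2 and 3, PA + PS2 differed from control by −1.38, −0.98 and −0.64 on the log2 scale. PA and PA + PS2 overlapped for both Has2 and Hapln1.

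Hapln4, the link protein that accompanies brevican at inhibitory synapses and nets (ENSMUSG00000007594, chromosome 8, 70083457 to 70090862, plus strand), stood at 1.6, 1.96 and 1.52 CPM in control, 1.26, 2.14 and 1.24 CPM in PA, and 1.44, 1.77 and 2.12 CPM in PA + PS2. The 3 groups overlapped. With 28 to 51 reads per library, the 95% interval of the difference of PA + PS2 from control ran from −0.60 to 0.75, which leaves room for a change in either direction.

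Aggrecan, the lectican most used to stain mature nets, is encoded by Acan (ENSMUSG00000030607, chromosome 7, 79053483 to 79115099, plus strand). Acan stood at 13.9, 12.5 and 9.02 CPM in control repeats 1, 2 and 3, at 12.1, 13.2 and 9.36 CPM in PA, and at 9.38, 6.9 and 8.9 CPM in PA + PS2. PA + PS2 had the lowest mean, 8.39 ± 1.31 CPM (SD, n = 3) against 11.8 ± 2.5 in control and 11.6 ± 1.97 in PA, but its repeat 1 library lay above the repeat 3 libraries of both, so the groups overlapped. The log2 fold change was −0.49 ± 0.20 for PA + PS2 against control (edgeR adjusted p = 0.717) and −0.46 ± 0.20 against PA (adjusted p = 0.836). Within repeat 3 the difference from control was −0.02, against −0.56 and −0.85 within repeats 1 and 2.

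Neurocan, a lectican that neurons of the developing cortex secrete, is encoded by Ncan (ENSMUSG00000002341, chromosome 8, 70093085 to 70120873, minus strand). Ncan stood at 734, 691 and 714 CPM in control, 882, 640 and 760 CPM in PA, and 727, 735 and 746 CPM in PA + PS2. PA held both the highest and the lowest library of the 9. With 15123 or more reads in every library, the 95% interval of the log2 difference of PA + PS2 from control was −0.20 to 0.29, and that from PA was −0.29 to 0.20.

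Versican, a large lectican of developing tissue and of oligodendrocyte precursors, is encoded by Vcan (ENSMUSG00000021614, chromosome 13, 89655312 to 89742509, minus strand). Vcan stood at 192, 229 and 334 CPM in control, 204, 275 and 317 CPM in PA, and 204, 232 and 230 CPM in PA + PS2. Ptprz1, whose receptor and secreted forms bind tenascins and pleiotrophin (ENSMUSG00000068748, chromosome 6, 22875502 to 23052916, plus strand), stood at 257, 330 and 384 CPM in control, 269, 382 and 380 CPM in PA, and 264, 322 and 315 CPM in PA + PS2. For both genes repeat 1 was the lowest library in all 3 groups, and the groups overlapped in every comparison. The log2 fold change for PA + PS2 against PA was −0.26 ± 0.20 for Vcan (95% interval −0.69 to 0.17) and −0.19 ± 0.17 for Ptprz1 (−0.56 to 0.17). Isoforms of either gene are not separated by counts per gene.

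Tenascin-R, the tenascin of nets and of the nodes of axons, is encoded by Tnr (ENSMUSG00000015829, chromosome 1, 159523769 to 159931729, plus strand). Tnr stood at 244, 191 and 255 CPM in control, 242, 209 and 279 CPM in PA, and 223, 228 and 242 CPM in PA + PS2. Its 95% intervals were −0.21 to 0.37 for PA against control, −0.28 to 0.29 for PA + PS2 against control and −0.36 to 0.21 for PA + PS2 against PA. Tnr and Tnc, both tenascins, stood at 230 ± 34.5 against 231 ± 9.86 CPM and 62.4 ± 30.5 against 40.7 ± 7.98 CPM in control and PA + PS2, and the difference between the 2 genes was not tested.

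Each of the 4 lectican genes lies beside a link protein gene, with 0 protein-coding genes between them in the annotation. Ncan and Hapln4 are 2.22 kb apart, yet per length Ncan averaged 102 CPM per kb and Hapln4 0.426. Vcan and Hapln1 lie 43.7 kb apart, at 17 and 0.239 CPM per kb. Bcan lies 21.5 kb from Hapln2, which had 61 reads over the 9 libraries and was not tested. Acan ends 2 bases from the end of Hapln3, which had 119 reads. Of the 10 members, Tnr, Tnc and Has2 share exon bases with a gene on the opposite strand, and those genes had 0, 28 and 21 reads in all.

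For each member the 3 genes with the most similar log2 CPM over the 9 libraries were found among 10327 protein-coding genes of at least 5 CPM. Each r was picked as one of the highest of 10327 values over 9 points that share 3 groups. A search of this size can give high values for unrelated genes, so the names are a description only. They were Rlbp1 (Pearson r 0.98), Kcnj10 (0.98) and Mfge8 (0.97) for Bcan, and Slc9a3r1 (0.98), Mfge8 (0.97) and Xylt1 (0.96) for Tnc. Mfge8 was the only gene named for 2 members. For Ncan they were Bcr (0.99), Crtc1 (0.98) and Kif21b (0.98), for Vcan Dgkh, Pcdhb19 and Cbl, for Ptprz1 Ntrk3, Fam120c and Raph1, and for Tnr Dok6, Rasgrf2 and Atrn. For Acan they were Bnip1, Cemip2 and Myo5b, for Hapln1 Kpnb1, Anp32b and Naf1, for Hapln4 Ubxn4, Snrpa1 and Omg, and for Has2 Lman1, Cdkn1b and E2f3, the last at 0.89.

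The machinery around these genes was read from 5 further lists. In hyaluronan synthesis, breakdown and binding, 13 of 16 genes were tested and 0 passed in any comparison (edgeR), with 0, 2 and 2 at an unadjusted p under 0.05 for PA against control, PA + PS2 against control and PA + PS2 against PA, where all genes gave 1.22%, 5.63% and 5.61%. Has3, which makes shorter hyaluronan chains, stood at 45, 45.2 and 42.9 CPM in control and 40.6, 42.4 and 39.4 CPM in PA + PS2, a log2 difference of −0.12 ± 0.09. The level of Has3 was 44.4 ± 1.26 CPM in control, where Has2 was 0.845 ± 0.163. Cd44, a hyaluronan receptor of glia and many other cells, stood at 3.57, 4.3 and 7.32 CPM in control, 3.64, 7.5 and 4.62 CPM in PA, and 2.69, 2.54 and 1.87 CPM in PA + PS2 (−1.09 ± 0.34 against control, edgeR adjusted p = 0.338). Hmmr, a hyaluronan-binding protein of the mitotic spindle, stood at −1.31 ± 0.44 against control (edgeR adjusted p = 0.466; blocked by repeat, 0.0337). Dividing-cell markers summed to 114 to 263 CPM in control and 86.7 to 112 CPM in PA + PS2 beside it, and their part in the value of Hmmr was not tested. Cemip2, a cell-surface hyaluronidase, was 99.1 ± 6.49 CPM in control and 88 ± 2.43 CPM in PA + PS2.

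**Figure D5:**
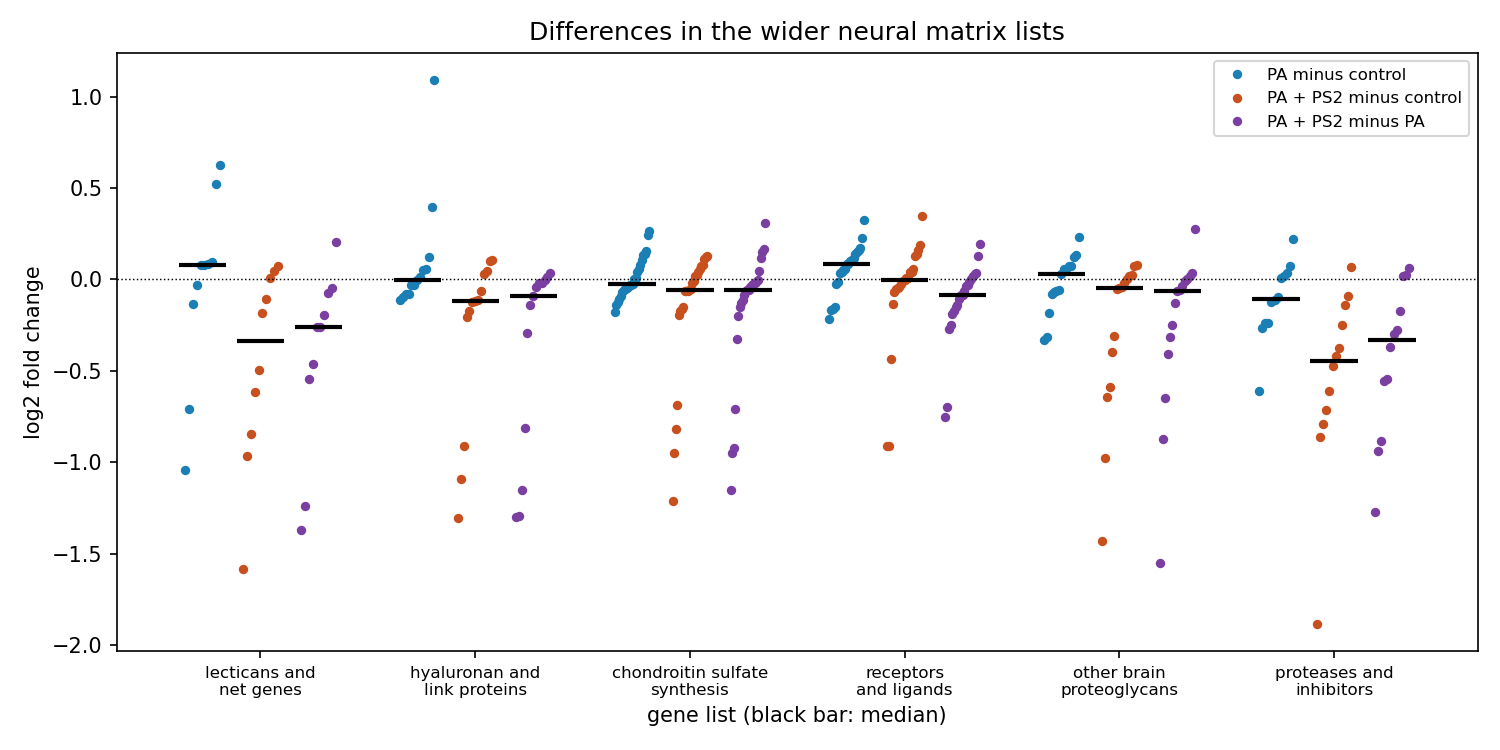
Log2 fold change of every tested gene in the set of 10 and in 5 further lists, by comparison, with the median as a black bar. Most genes of chondroitin sulfate synthesis lie near 0, with a median of −0.06 for PA + PS2 against control, while the protease list has a median of −0.45.

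Enzymes that build and sulfate chondroitin sulfate, the sugar chains of the lecticans, gave 24 tested genes of 25, with 0 passing in each comparison (0, 1 and 2 at an unadjusted p under 0.05, against 1.22%, 5.63% and 5.61% of all genes). The median was −0.06 for PA + PS2 against control, with 15 of 24 below 0 (50.2% of all genes). Chst3, which adds sulfate at the 6 position of the chain, stood at 2.1, 4.3 and 2.95 CPM in control and 1.15, 1.62 and 2.04 CPM in PA + PS2 (−0.95 ± 0.33, edgeR adjusted p = 0.473). Chst14, an enzyme of dermatan sulfate, stood at −0.82 ± 0.43 and Papss2, which makes the sulfate donor, at −1.21 ± 0.68 on 39 against 17 reads. Xylt1, which starts the chains, stood at −0.19 ± 0.11 against control and at −0.33 ± 0.11 against PA, where the groups did not overlap (edgeR adjusted p = 0.583).

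Receptors and ligands of these proteins gave 21 tested genes, with 0 passing in each comparison (0, 2 and 1 at an unadjusted p under 0.05, against 1.22%, 5.63% and 5.61% of all genes) and a median of 0.00 for PA + PS2 against control. Ptn, the Ptprz1 ligand pleiotrophin, stood at 204 ± 25.5 CPM in control, 228 ± 34.6 in PA and 232 ± 28 in PA + PS2, and Mdk, the related ligand midkine, at 25.1 ± 6.17, 29.4 ± 7.31 and 24.7 ± 1.58 CPM. Of the genes with the smallest p in this list, Itgav stood at −0.91 ± 0.24 against control (edgeR adjusted p = 0.205; blocked by repeat, 0.0479), Itgb1 at −0.44 ± 0.18 (adjusted p = 0.693) and Itga8, which overlapped control, at −0.91 ± 0.43 (adjusted p = 0.931). Itga9, whose integrin binds tenascin-C, stood at 0.35 ± 0.25, and 10 of the 21 genes lay above 0.

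Other proteoglycans and matrix proteins of the brain gave 15 tested genes of 16, with 0 passing in each comparison (0, 3 and 2 at an unadjusted p under 0.05, against 1.22%, 5.63% and 5.61% of all genes). Gpc4, a glypican that astrocytes release, stood at 23.2, 33.7 and 39.5 CPM in control, 23.1, 28.2 and 25.3 CPM in PA, and 17, 18 and 13.8 CPM in PA + PS2. Its difference of PA + PS2 from control was −0.98 ± 0.18 (edgeR adjusted p = 0.0833; blocked by repeat, 0.0189). Cspg4, the NG2 proteoglycan of oligodendrocyte precursors and pericytes, stood at 1.85, 4.09 and 5.06 CPM in control, 4.05, 4.44 and 3.46 CPM in PA, and 1.11, 1.89 and 1.04 CPM in PA + PS2 (−1.55 ± 0.37 against PA, edgeR adjusted p = 0.29). Cspg5, a proteoglycan that neurons express, stood at 174 ± 19, 178 ± 26.7 and 177 ± 6.49 CPM in the 3 groups. Reln, the secreted guidance protein reelin, was −0.31 ± 0.12 against control (edgeR adjusted p = 0.635), and Gpc6 was −0.39 ± 0.18.

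Proteases that cut lecticans and their inhibitors gave 12 tested genes of 15, with 0 passing in each comparison (0, 4 and 4 at an unadjusted p under 0.05, against 1.22%, 5.63% and 5.61% of all genes). Of the 12 genes, 11 lay below 0 for PA + PS2 against control (50.2% of all genes), with a median of −0.45. Mmp2, a gelatinase of mesenchymal cells, stood at 5.01, 4.78 and 3.64 CPM in control, 2.88, 3.56 and 2.37 CPM in PA, and 1.78, 1.66 and 0.208 CPM in PA + PS2 (−1.88 ± 0.50 against control, edgeR adjusted p = 0.215; blocked by repeat, 0.0371). Timp3, an inhibitor of both protease families, stood at −0.79 ± 0.23, Adamts1, which cuts aggrecan and versican, at −0.42 ± 0.16, and Mmp14 at −0.48 ± 0.20. Summed markers of fibroblasts and mural cells were 308 to 378 CPM in control and 147 to 216 CPM in PA + PS2 beside these values, and their part was not tested.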

How the data were processed

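The authors deposited 1 file per library, holding unnormalized counts of reads for each Ensembl gene. Per the submitters' processing notes the tools were cutadapt 4.2, STAR 2.7.5, HTSeq 2.0.2 and DESeq2 1.14.1 with the build mm10. The annotation release, the strand setting and the filters are not given in the sources used here. GENCODE M21, on the same build, gave symbols, coordinates and merged exon lengths and matched 54165 of the 54232 identifiers. Counts of all 9 libraries were fitted together in edgeR 4.0.16 (R 4.3.3; quasi-likelihood test, 2-sided), with 6 residual degrees of freedom, TMM scaling (trimmed mean of M values) and filterByExpr (smallest count 10, smallest total 15). DESeq2 1.42.0 was the other tool. P-values were adjusted by Benjamini and Hochberg over 15712 genes. CPM use the same scaling, and log2 CPM for correlations a prior count of 2. Standard errors were derived from each log2 fold change and its F statistic. The test was tested on simulated data.

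The members and lists were chosen with earlier results of these data known. Named were all members, up to 4 genes per further list with the smallest p for PA + PS2 against control, 8 genes by role and the 3 most similar genes per member. Repeat numbers were checked for pairing by correlating deviations from group means: same-numbered libraries gave 0.42, 0.37 and 0.28 for PA and control, 0.18, 0.22 and 0.13 for PA + PS2 and control, and 0.015, 0.29 and 0.3 for PA + PS2 and PA. For PA + PS2 against control and against PA, the block is printed beside a test where it changed a call. This pairing was read from the data and not stated by the labels, and it did not hold for repeat 1 of PA + PS2 and PA. Alternatives were other scalings, filters and tools, the block, fits of 2 groups, and fits without single libraries.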

Additional observations from a re-analysis of the deposited data

How the results depend on the processing

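No fit gave a member in PA against control a call except that without the low-count filter, where 1 member (Tnc) and 23 genes passed. For PA + PS2 against control the 7 genes became 17 with RLE size factors, 2 with library totals, 224 with DESeq2, 365 without the filter, 3 with a minimum count of 50, 184 with the repeat block, 28 in a fit of 2 groups and 125 without the 3 repeat 1 libraries, an alternative chosen after seeing the data. Members passing were 2 without the filter (Bcan, Tnc) and 1 without the repeat 1 libraries (Tnc). For PA + PS2 against PA the 0 genes became 128 with DESeq2, 330 without the filter, 57 with the repeat block and 3 without the repeat 1 libraries. Members passing were 1 with DESeq2 (Bcan), 2 without the filter, 2 with the repeat block (Bcan and Tnc, adjusted p = 0.0354 and 0.0389) and 1 without the repeat 1 libraries (Tnc). In that comparison same-numbered libraries correlated at 0.29 and 0.3 for repeats 2 and 3, but at 0.015 for repeat 1. For repeat 1 this block rests on a shared number alone. The block changed no other call of a member. Leaving out 1 library gave 0 to 175 genes and 0 to 1 members for PA + PS2 against control, and 0 to 37 genes and 0 to 1 members for PA + PS2 against PA. The highest values came without control repeat 1. Of 500 alternative values of the members, 463 kept direction and call, 12 gained a call and 25 reversed. Without the repeat 1 libraries, PA against control was 0.0638 for Acan and −0.0037 for Ncan, and PA + PS2 against PA was 0.0833 for Ncan. Tnr in PA + PS2 against control was −0.0114 with library totals and −0.0056 with a minimum count of 50. Leaving out single libraries, log2 fold changes for PA against control ran from −0.1925 to 0.103 for Acan, −0.0263 to 0.1943 for Ncan, −0.0825 to 0.3345 for Vcan, −0.4448 to 0.007 for Hapln4, −0.0406 to 0.171 for Tnr and −0.0563 to 0.2327 for Ptprz1. For PA + PS2 against control they ran from −0.3409 to 0.0761 for Vcan, −0.069 to 0.2102 for Hapln4, −0.1025 to 0.0877 for Tnr and −0.2473 to 0.0337 for Ptprz1. For PA + PS2 against PA they ran from −0.1375 to 0.0749 for Ncan, −0.6814 to 0.0211 for Hapln1 and −0.1554 to 0.0335 for Tnr. For PA + PS2 against control the range was −1.17 to −0.47 for Bcan and −0.97 to −0.37 for Tnc, and for PA + PS2 against PA −1.55 to −1.06 and −1.34 to −1.08. The cause of these changes was not tested. Read numbers limit Has2, Hapln1 and Hapln4 most.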
